A study of Danio rerio with 4 samples.

Results

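Many of the proteins that drive mitosis are made by dividing cells late in the cell cycle, so their transcripts are often used as marks of cycling cells. The genes described here encode Cdk1 and its cyclins, the Aurora and Polo kinases, the spindle checkpoint, the kinetochore, spindle motors, the cytokinesis machinery and condensin. They were chosen by name, as 48 symbols, and 46 of them matched 46 of the 28346 genes in the deposited tables. birc5a was matched as BIRC5, and prc1a and prc1b as 2 genes named PRC1, which are told apart by their identifiers. incenp and kif4 matched no name. The paralogs BIRC5 and birc5b, and the 2 PRC1 genes, could share reads in the authors' estimated counts, so their split is uncertain.

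The cells were sorted from zebrafish larvae at 5 days post fertilisation, out of their caudal hematopoietic tissue, a plexus of vessels in the tail where blood stem and progenitor cells settle and divide. All larvae were wild type apart from the transgenes, untreated, and carried Tg(kdrl:GFP;lyve1b:DsRed), in which the promoter of the endothelial receptor gene kdrl drives GFP and that of the vein and lymphatic gene lyve1b drives DsRed. Vein endothelium was sorted as cells positive for both reporters, and non-vein endothelium as cells with GFP alone, with 2 libraries in each group. The gate on GFP alone has no marker of its own, and the labels do not say how many larvae were pooled or whether replicates came from separate pools. The p-values therefore describe the spread between these libraries alone, and that spread may be technical.

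Estimated counts summed to 15672159 and 16409447 in vein libraries and to 18047152 and 18862102 in non-vein libraries, so a count of 0 allows up to 3 counts, or 0.196 and 0.191 CPM (counts scaled to the TMM-adjusted library total) in vein and 0.163 and 0.152 CPM in non-vein libraries. lyve1b stood at 1953 and 1636 CPM in vein libraries, against 53.7 and 217 CPM in non-vein libraries, which restates the sort. kdrl, which marks the endothelium of both gates, was present in all, at 10500 and 7933 CPM in vein libraries and 1998 and 2956 CPM in non-vein libraries. Of 15953 tested genes, 1170 were lower in vein (7.33%) and 656 higher (4.11%), 11.4% in either direction (edgeR, adjusted p under 0.05), and the median log2 fold over all tested genes was 0.01. Vein libraries differed from each other more often than non-vein libraries in genes seen in only 1 of the pair: 897 tested genes (5.62%) had 0 counts in one vein library and at least 20 in the other, against 548 (3.44%) between the non-vein libraries.

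Mitosis and spindle genes were low in vein endothelium. Of the 46 genes, 45 passed the filter on low counts, and birc5b had 0 counts in all 4 libraries. Among the 45 tested, 24 fell in vein, 0 rose and 21 did not pass the test, where 7.33% of all tested genes were lower. The median log2 fold was -3.85. Setting the 3 genes that had no vein counts at their bounds cannot move it, since those bounds lie below it. Both vein libraries lay below both non-vein libraries for 44 of the 45 genes, as they did for 33.1% of all tested genes, and both lay above for 0, against 29.0% of all. A gene counted only in non-vein cells could pass the filter through that group alone, so these counts describe the 45 genes and are not a test of the list. In a bulk library, fewer dividing cells and less of these transcripts per cell cannot be told apart.

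Summed over the 46 genes, their share of counts was 0.0285% and 0.0356% in vein libraries, against 0.407% and 0.356% in the non-vein libraries. With 2 libraries against 2, an exact two-sided permutation test cannot go below p = 0.33, so these shares carry no test. Their summed level was 291.5 and 372 CPM in vein libraries and 3992 and 3412 CPM in non-vein libraries.

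**Figure D1:**
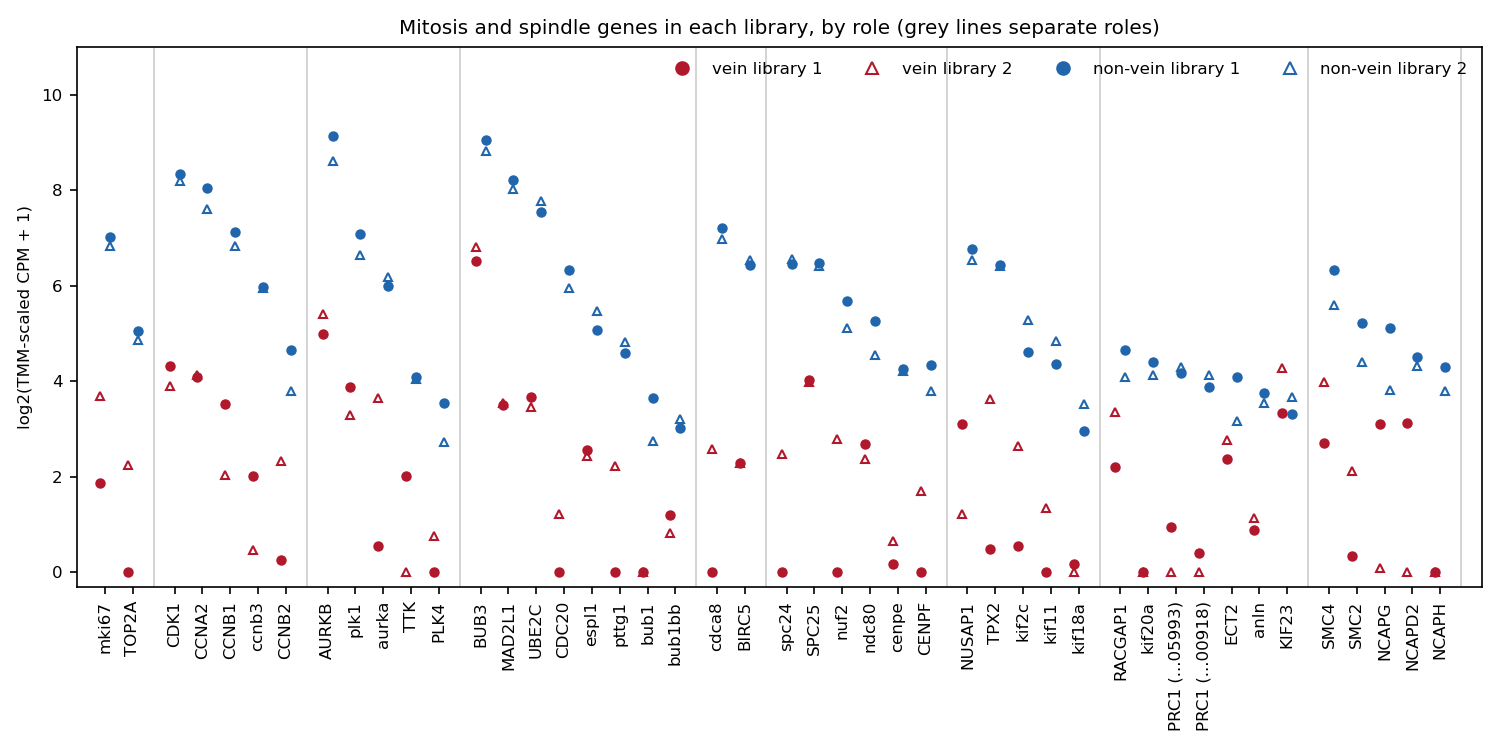
Level of each of the 45 tested mitosis and spindle genes in each library, as log2(TMM-scaled CPM + 1), ordered within each role by the non-vein mean. For each gene the vein libraries stand on the left in red and the non-vein libraries on the right in blue, with a filled circle for library 1 and an open triangle for library 2. In 44 of 45 genes both red points lie below both blue points, KIF23 being the exception, and 14 genes have exactly 1 red point at 0. The 2 PRC1 genes carry the last 5 digits of their identifiers.

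mki67 and TOP2A are the usual marks of proliferating cells, the first a coat protein of mitotic chromosomes and the second a topoisomerase that untangles sister DNA. mki67 stood at 2.68 and 11.9 CPM in vein libraries, against 128 and 112 CPM in non-vein libraries. It fell 16.5-fold (log2 -4.05, SE 0.73, edgeR, adjusted p = 0.0277). The groups were far apart, but the vein libraries differed from each other, and the log2 fold was -3.34 with vein library 1 left out and -5.49 with vein library 2 left out. TOP2A had 0 and 3.76 CPM in vein libraries and 32.4 and 28.2 CPM in non-vein libraries, and with a log2 fold of -4.0 did not pass (SE 1.62, edgeR, adjusted p = 0.168). Without vein library 1 its log2 fold was -3.01, and without vein library 2 no vein count of TOP2A remains.

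Cdk1 with A- and B-type cyclins forms the kinase that starts mitosis, and 4 of the 5 genes of this group fell. CDK1, the catalytic subunit, stood at 18.87 and 14.0 CPM in vein libraries and at 322 and 292 CPM in non-vein libraries. It fell 18.7-fold (log2 -4.22, SE 0.28, edgeR, adjusted p = 0.00985). CCNA2, the cyclin that acts from S phase to early mitosis, had 16.0 and 16.4 CPM in vein libraries and 263 and 195 CPM in non-vein libraries. Its fall of 14.1-fold (log2 -3.82, SE 0.28, edgeR, adjusted p = 0.00985) rests on vein libraries that barely differ. CCNB1, the main mitotic cyclin, had 10.5 and 3.12 CPM in vein libraries and 139 and 112 CPM in non-vein libraries, and fell 18.4-fold (edgeR, adjusted p = 0.0195). ccnb3, a further B-type cyclin, had 3.07 and 0.383 CPM in vein libraries and 61.9 and 61.0 CPM in non-vein libraries, and fell 35.5-fold (edgeR, adjusted p = 0.0288). CCNB2 showed 0.196 and 4.02 CPM in vein libraries and 24.3 and 13.0 CPM in non-vein libraries, without passing (log2 -3.14, SE 1.32, edgeR, adjusted p = 0.181). Vein library 1 was the higher of its pair for CCNB1 and ccnb3 and the lower for CCNB2. Without vein library 1 the log2 folds of CCNB1 and ccnb3 were -5.33 and -7.31, and without vein library 2 they were -3.58 and -4.32.

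Among the mitotic kinases, AURKB and plk1 fell and aurka, PLK4 and TTK did not pass. AURKB, the kinase of the chromosomal passenger complex that corrects faulty attachments, stood at 31.0 and 41.5 CPM in vein libraries and 558 and 389.8 CPM in non-vein libraries. It fell 13.1-fold (log2 -3.71, SE 0.31, edgeR, adjusted p = 0.0117). plk1, which acts from mitotic entry to cytokinesis, had 13.8 and 8.80 CPM in vein libraries and 134.5 and 98.5 CPM in non-vein libraries, and fell 10.3-fold (edgeR, adjusted p = 0.0144). aurka, the kinase of centrosomes and spindle poles, split the vein libraries, with 0.457 and 11.6 CPM there against 62.8 and 71.7 CPM in non-vein libraries (log2 -3.48, SE 1.25, edgeR, adjusted p = 0.129). PLK4, which starts centriole duplication, had 0 and 0.702 CPM in vein libraries and 10.7 and 5.59 CPM in non-vein libraries (log2 -4.51, edgeR, adjusted p = 0.152). TTK, the kinase that switches the spindle checkpoint on, had 3.07 and 0 CPM in vein libraries and 15.9 and 15.6 CPM in non-vein libraries (log2 -3.35, edgeR, adjusted p = 0.262). Without vein library 2 the log2 fold of TTK was -2.36, and without vein library 1 no vein count of TTK remains. Without vein library 1 the log2 fold of PLK4 was -3.53, and without vein library 2 no vein count of PLK4 remains. For aurka these log2 folds were -2.54 without vein library 1 and -7.18 without vein library 2.

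The spindle checkpoint holds back the anaphase-promoting complex (APC/C) until chromosomes are attached. Of 8 genes of this pathway 6 fell, and 4 did with a replicate block. MAD2L1, the checkpoint protein that binds the APC/C activator, had 10.3 and 10.7 CPM in vein libraries and 294.5 and 258 CPM in non-vein libraries. This 26.3-fold fall had one of the smallest errors of the set (log2 -4.72, SE 0.26, edgeR, adjusted p = 0.00985). CDC20, that activator, had 0 and 1.34 CPM in vein libraries and 79.2 and 61.3 CPM in non-vein libraries, and fell 103-fold (log2 -6.69, SE 1.26, edgeR, adjusted p = 0.0307). The log2 fold was -5.71 with vein library 1 left out, and no vein count remains with vein library 2 left out. UBE2C, the ubiquitin-conjugating enzyme that works with the APC/C, had 11.7 and 9.95 CPM in vein libraries and 186 and 217 CPM in non-vein libraries, and fell 18.6-fold (edgeR, adjusted p = 0.00985). BUB3, a checkpoint protein that docks on kinetochores, had the highest FPKM of the genes in each vein library, 75.1 and 90.01, against 454 and 397 FPKM in non-vein libraries (FPKM scale counts to transcript length and library total). In CPM it stood at 90.4 and 111.5 in vein libraries, against 529.7 and 450.4 CPM in non-vein libraries. It fell 4.85-fold (log2 -2.28, SE 0.23, edgeR, adjusted p = 0.0144), the smallest fall among the 24. espl1, the separase that cuts cohesin, had 4.90 and 4.40 CPM in vein libraries and 32.8 and 43.3 CPM in non-vein libraries, and fell 8.17-fold (edgeR's adjusted p being 0.0190, or 0.0582 with non-vein library 2 left out).

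The checkpoint kinase gene bub1 had 0 counts in both vein libraries and 11.5 and 5.74 CPM in non-vein libraries. With the vein group set at a floor of 3 counts over both libraries, it was at least 88.2-fold lower (edgeR, adjusted p = 0.0313). Its adjusted p was 0.160 with non-vein library 1 left out. Such bounds cover counting error only. Its relative bub1bb, which encodes the BubR1 checkpoint protein, was counted in both vein libraries, at 1.31 and 0.765 CPM against 7.17 and 8.18 CPM in non-vein libraries, and did not pass (log2 -2.88, edgeR, adjusted p = 0.105). pttg1, the securin that restrains separase, had 0 and 3.70 CPM in vein libraries and 23.0 and 27.2 CPM in non-vein libraries (log2 -3.76, edgeR, adjusted p = 0.199).

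In the chromosomal passenger complex, which carries Aurora B to the centromere, BIRC5 (survivin) had 3.85 and 3.89 CPM in vein libraries and 85.4 and 91.5 CPM in non-vein libraries. It fell 22.8-fold (log2 -4.51, SE 0.33, edgeR, adjusted p = 0.00985). cdca8, the borealin subunit, showed the larger log2 fold of -5.77, but its vein libraries held 0 and 4.97 CPM against 147 and 126 CPM in non-vein libraries, and it did not pass (SE 1.49, edgeR, adjusted p = 0.0635). Without vein library 1 the log2 fold of cdca8 was -4.78, and without vein library 2 no vein count of cdca8 remains. For BIRC5 these log2 folds were -4.51 without vein library 1 and -4.52 without vein library 2.

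The kinetochore genes all stood lower in vein, and 3 of 6 fell (5 without vein library 2, and 1 with non-vein library 1 left out). SPC25 had 15.4 and 14.9 CPM in vein libraries and 88.0 and 84.3 CPM in non-vein libraries, and fell 5.69-fold (log2 -2.51, SE 0.29, edgeR, adjusted p = 0.0149). ndc80 had 5.42 and 4.21 CPM in vein libraries and 37.1 and 22.5 CPM in non-vein libraries, and fell 6.18-fold (edgeR, adjusted p = 0.0364). Its call was lost without any 1 of vein library 1, vein library 2 and non-vein library 1 (adjusted p = 0.0534, 0.0569 and 0.218). Their partners in the NDC80 complex, which grips spindle microtubules, each had 0 counts in vein library 1. spc24 stood at 0 and 4.59 CPM in vein libraries and 86.7 and 93.4 CPM in non-vein libraries (log2 -5.29, edgeR, adjusted p = 0.0770). nuf2 stood at 0 and 5.93 CPM in vein libraries and 50.6 and 33.8 CPM in non-vein libraries (log2 -3.83, edgeR, adjusted p = 0.186). So the 4 subunits of one complex were all low in vein, and the pair that passed was the pair counted in both vein libraries.

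Per transcript length, in FPKM, the NDC80 complex genes ran in the order ndc80, nuf2 and then spc24 and SPC25 in non-vein libraries. ndc80 had 2.29 and 1.74 FPKM in vein and 16.4 and 10.1 FPKM in non-vein libraries. nuf2 had 0 and 4.03 FPKM in vein and 36.0 and 25.2 FPKM in non-vein libraries. SPC25 had 4.43 and 6.09 FPKM in vein and 75.9 and 73.0 FPKM in non-vein libraries, and spc24 0 and 3.71 FPKM in vein and 74.8 and 82.4 FPKM in non-vein libraries, so that these last genes overlapped in level. cenpe, a kinetochore motor that gathers chromosomes at the spindle equator, had 0.131 and 0.574 CPM in vein libraries and 18.04 and 17.5 CPM in non-vein libraries, and fell 49.3-fold (edgeR, adjusted p = 0.0251). Its log2 fold of -5.62 was -4.94 with vein library 1 left out and -7.02 with vein library 2 left out. With non-vein library 1 left out its adjusted p was 0.0675. CENPF, a large protein of the outer kinetochore, had 0 and 2.23 CPM in vein libraries and 19.2 and 12.8 CPM in non-vein libraries (log2 -3.83, edgeR, adjusted p = 0.197).

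Spindle motors and microtubule proteins were low as well, with 2 of 5 passing (4 without vein library 1, 5 without vein library 2 and 1 without either one of the non-vein libraries). NUSAP1, which bundles spindle microtubules, had 7.58 and 1.34 CPM in vein libraries and 108 and 92.2 CPM in non-vein libraries, and fell 22.4-fold (edgeR, adjusted p = 0.0290). Its log2 fold of -4.49 was -6.22 with vein library 1 left out and -3.72 with vein library 2 left out. kif18a, a motor that limits microtubule length at kinetochores, had 2 counts over the vein libraries and 329 over the non-vein libraries, which is 134-fold lower, with exact 95% binomial bounds of 36.8 and 1110 for counting error (edgeR, adjusted p = 0.0459). Its call was lost without either non-vein library (adjusted p = 0.109 and 0.158), and both vein counts lay in vein library 1. TPX2, which activates Aurora A on the spindle, split the vein libraries at 0.392 and 11.4 CPM, against 84.9 and 84.3 CPM in non-vein libraries (log2 -3.85, SE 1.28, edgeR, adjusted p = 0.108). kif2c, a kinesin that takes microtubules apart, and kif11, the motor that pushes spindle poles apart, likewise had more counts in vein library 2 than in vein library 1. kif2c stood at 0.457 and 5.29 CPM in vein libraries and 23.4 and 38.1 CPM in non-vein libraries (edgeR, adjusted p = 0.105). kif11 stood at 0 and 1.53 CPM in vein libraries and 19.6 and 27.5 CPM in non-vein libraries (edgeR, adjusted p = 0.0962). A gene named KIF4A, which the symbol kif4 did not match and which is not among the 46, had 0 and 1 counts in vein libraries and 261 and 92 in non-vein libraries.

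Genes of the central spindle and cytokinesis, which split the cell after anaphase, were the least uniform role, with 3 of 7 lower (1 without either one of the non-vein libraries). kif20a, a kinesin of the spindle midzone, had 0 counts in both vein libraries and 20.2 and 16.4 CPM in non-vein libraries. Its level was at least 188.5-fold lower (edgeR, adjusted p = 0.0164). The PRC1 gene ENSDARG00000100918, for a protein that crosslinks midzone microtubules, had 0.327 and 0 CPM in vein libraries and 13.8 and 16.6 CPM in non-vein libraries. It fell 89.5-fold (edgeR, adjusted p = 0.0435), a call lost without non-vein library 1 (adjusted p = 0.0893) or 2 (0.0907), and without vein library 1 no vein count remains. The other PRC1 gene, ENSDARG00000005993, had 0.914 and 0 CPM in vein libraries and 17.0 and 18.8 CPM in non-vein libraries and did not pass (log2 -5.27, edgeR, adjusted p = 0.0812). anln, the anillin of the contractile ring, had 0.849 and 1.21 CPM in vein libraries and 12.6 and 10.7 CPM in non-vein libraries, and fell 11.2-fold at the edge of the threshold (edgeR, adjusted p = 0.0495). The call of anln was lost without any 1 of the 4 libraries, with adjusted p from 0.0538 to 0.278.

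KIF23 was the only one of the 45 genes whose level was not lower in vein. It encodes a kinesin that pairs with RACGAP1 to form centralspindlin, and it had 9.08 and 18.4 CPM in vein libraries and 8.97 and 11.6 CPM in non-vein libraries. The groups overlapped (log2 0.41, SE 0.62, edgeR, adjusted p = 0.731), and the log2 fold was -0.19 without vein library 2. RACGAP1 had 3.59 and 9.25 CPM in vein libraries and 24.0 and 16.0 CPM in non-vein libraries, without passing (log2 -1.64, SE 0.68, edgeR, adjusted p = 0.176). ECT2, the exchange factor that centralspindlin recruits to activate RhoA, had 4.18 and 5.80 CPM in vein libraries and 16.0 and 7.93 CPM in non-vein libraries (log2 -1.26, SE 0.71, edgeR, adjusted p = 0.312). By counts these were the 3 log2 folds nearest to 0 of the 45. Per transcript length RACGAP1 was not among them: mean FPKM was 6.29-fold lower in vein for RACGAP1 and 4.72-fold lower for ECT2, against 5.15-fold for BUB3. By counts, not scaled to length, KIF23 made up 3.11% and 4.93% of the summed CPM of the 46 genes in vein libraries and 0.225% and 0.341% in non-vein libraries, and BUB3 made up 31.0% and 29.96% in vein and 13.3% and 13.2% in non-vein libraries.

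Condensin, which compacts chromosomes, had 2 of 5 subunit genes lower (1 with a replicate block). NCAPH, the kleisin subunit of condensin I, had 0 counts in both vein libraries and 18.6 and 13.0 CPM in non-vein libraries. Its level was at least 162-fold lower (edgeR, adjusted p = 0.0180). SMC4, an ATPase core subunit, had 5.49 and 14.9 CPM in vein libraries and 79.4 and 47.7 CPM in non-vein libraries, and fell 6.22-fold (edgeR, adjusted p = 0.0465). The log2 fold of SMC4 was -2.64, and -3.54 without vein library 2, and its call was lost without vein library 1 or non-vein library 1 (adjusted p = 0.0655 and 0.138). SMC2, the ATPase that pairs with SMC4, had 0.261 and 3.32 CPM in vein libraries and 36.5 and 20.1 CPM in non-vein libraries (edgeR, adjusted p = 0.0855). NCAPD2 and NCAPG, the other condensin I subunits, were nearly confined to library 1 within vein. NCAPD2 stood at 7.71 and 0 CPM in vein libraries and 21.6 and 19.0 CPM in non-vein libraries (edgeR, adjusted p = 0.437). NCAPG stood at 7.64 and 0.0638 CPM in vein libraries and 33.5 and 13.1 CPM in non-vein libraries (edgeR, adjusted p = 0.359).

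**Figure D2:**
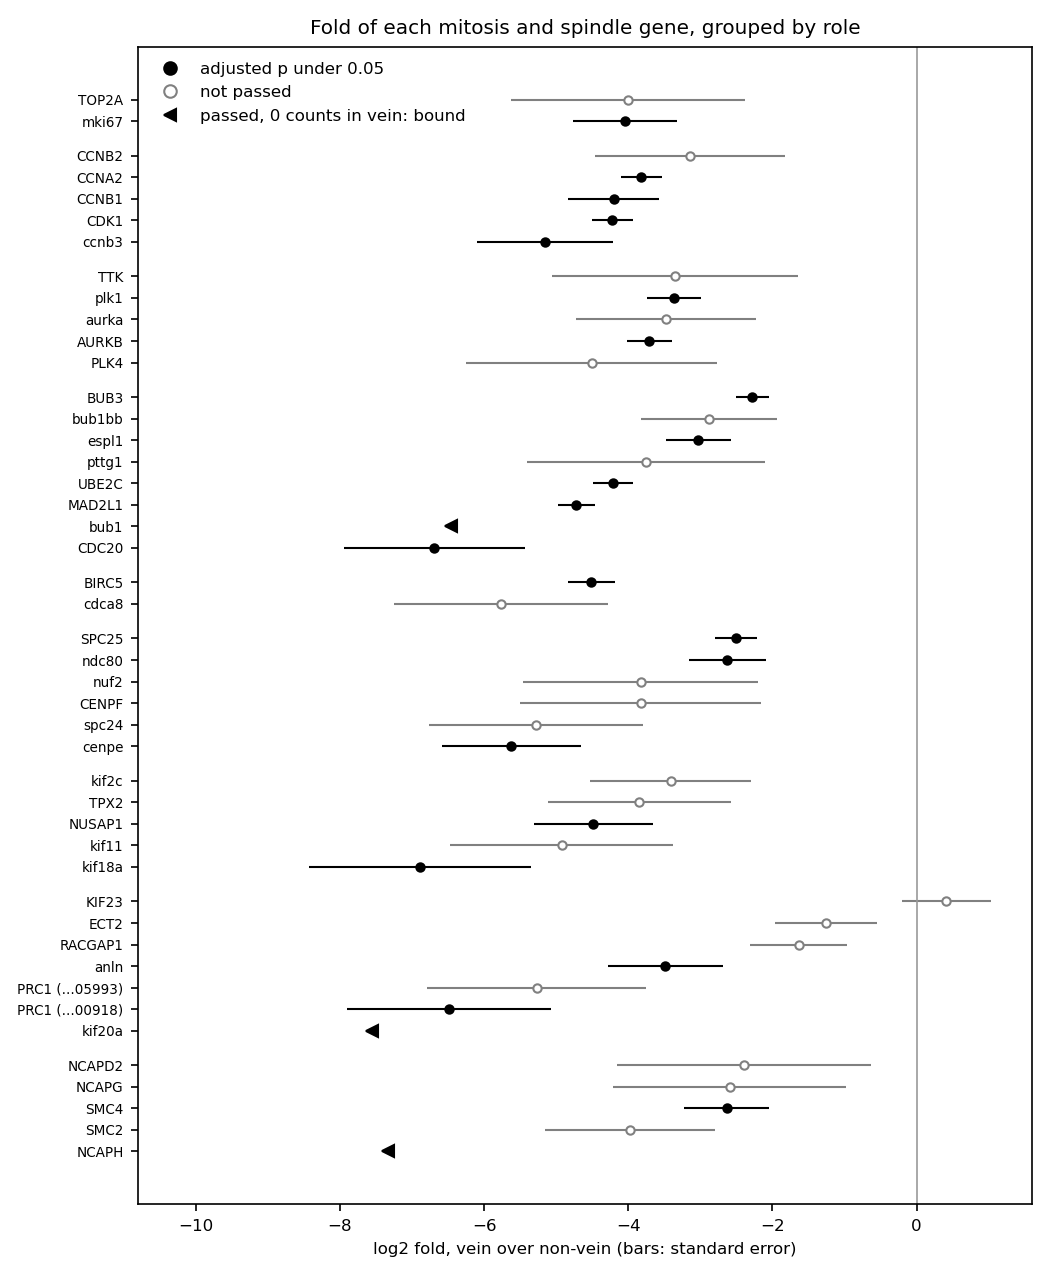
Log2 fold of each of the 45 tested genes, vein over non-vein, with its standard error, grouped by role in the order of the text. Filled points passed edgeR's quasi-likelihood test (24 genes, the 3 arrowheads included) and open points did not (21 genes). An arrowhead marks a gene with 0 vein counts at its bound, which covers counting error in vein only. KIF23 is the only gene to the right of 0, and the standard errors run from 0.23 for BUB3 to 1.76 for NCAPD2.

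The genes that passed and those that did not differed in how they were counted in vein. Of 28 genes counted in both vein libraries 18 fell, of 14 counted in only 1 vein library 3 fell, and of 3 counted in neither all 3 fell. Those last 3 passed the filter through the non-vein group alone. Vein library 1 was the empty one for 9 of the 14 and vein library 2 for 5. The standard errors ran from 0.23 to 1.70 among the 24 that fell and from 0.62 to 1.76 among the 21 others, 10 of which had an unadjusted p under 0.05. Calls were also unevenly spread over levels: 16 of 21 genes whose mean over the 4 libraries reached 20 CPM fell, against 8 of 24 below it. Neither split was made over all tested genes, 7.33% of which were lower. The splits therefore describe the 45 genes and do not show a trait particular to them. No non-vein library had 0 counts for any of the 45. The median absolute difference in log2(CPM + 1) between replicates was 0.94 in vein and 0.28 in non-vein libraries.

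Of the 24 genes, 13 fell under each of the 16 alternative settings that tested them, namely mki67, CDK1, CCNA2, CCNB1, ccnb3, AURKB, plk1, BUB3, MAD2L1, UBE2C, BIRC5, SPC25 and NUSAP1. With vein library 1 left out 32 genes were lower in vein, and with vein library 2 left out 36. Leaving out non-vein library 1 gave 17 and non-vein library 2 gave 20, and 0 were higher each time. In a fit that leaves a group with 1 library, that library is assumed to vary like the others.

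Other mitotic genes, from a separate list of 79 symbols with no member in common, showed the same direction. Of 66 tested 24 fell, against 7.33% of all tested genes, 0 rose and 42 did not pass, with a median log2 fold of -3.02. Genes of this list and those below could also pass the filter through 1 group alone. The lists were chosen with earlier results of these data known. Their counts therefore describe the genes and are not tests of the lists. CKS1B and cks2 (ENSDARG00000071410), small proteins that bind Cdk1, fell 13.8-fold and 17.7-fold (edgeR, adjusted p = 0.00985 and 0.0120). Another gene, named CKS2 (ENSDARG00000117089), fell 3.53-fold (edgeR, adjusted p = 0.0311). It passed in 12 of the 16 alternative settings. cdca3, a trigger of mitotic entry, had 5.94 and 8.48 CPM in vein libraries and 230.5 and 162 CPM in non-vein libraries and fell 27.2-fold (edgeR, adjusted p = 0.0102). tacc3, a spindle microtubule protein, had 3 counts over the vein libraries and 811 over the non-vein libraries (edgeR, adjusted p = 0.0144). Leaving out non-vein library 1, 11 of this list fell.

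DNA replication genes, which act in S phase before mitosis, had 21 of 30 tested lower and 0 higher, where 7.33% of all tested genes were lower. Their median log2 fold was -2.52, and it ran from -2.75 to -2.24 with a library left out. With a replicate block 19 were lower, and fewer still were with non-vein library 1 left out. PCNA, the sliding clamp of DNA polymerase, had 268 and 201 CPM in vein libraries and 1927 and 1579 CPM in non-vein libraries (log2 -2.90, SE 0.25, edgeR, adjusted p = 0.0119). The RRM2 gene ENSDARG00000078069, for a ribonucleotide reductase subunit, had 4.38 and 11.9 CPM in vein libraries and 319 and 265 CPM in non-vein libraries (log2 -5.16, edgeR, adjusted p = 0.0144). Its log2 fold was -6.06 without vein library 2. The difference between the medians of these lists was not tested.

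Subunits that form the body of the APC/C leaned lower in vein by less than the mitosis and spindle genes. Of 13 tested 0 were called (edgeR, 4 with an unadjusted p under 0.05), and 12 of the 13 log2 folds were negative. Their median was -0.94, with quartiles of -1.80 and -0.49. Both vein libraries lay below both non-vein libraries for 10 of the 13 and above for 0, against 33.1% and 29.0% of all tested genes. With vein library 1 left out, 2 of 14 were lower and the median was -1.24. ANAPC16, with the log2 fold nearest to 0 of the 13, had 176 and 162 CPM in vein libraries and 184 and 189 CPM in non-vein libraries (log2 -0.14, SE 0.21, edgeR, adjusted p = 0.729). ANAPC11, another subunit, had a log2 fold of -0.51 (edgeR, adjusted p = 0.226). Cohesin, the ring that holds sister chromatids together, and its regulators had 2 of 13 lower and 0 higher, with a median of -0.40. That count is near the 7.33% of all tested genes and is no result about cohesin. The genes called were rad21a, the kleisin of cohesin (log2 -1.42, edgeR, adjusted p = 0.0241), and PDS5B, a cohesin regulator (log2 -1.55, edgeR, adjusted p = 0.0428). Each lost its call without vein library 1 or non-vein library 1, rad21a also without vein library 2 (adjusted p = 0.0527) and PDS5B also without non-vein library 2 (0.0898), and the count was 0 without vein library 1 or non-vein library 1.

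Of the G1 cyclins, their Cdks, Rb and E2f genes, which govern entry into S phase, 5 of 22 were lower and 0 higher (median log2 -1.07). Among all tested genes 7.33% were lower. CDK2, the kinase of S phase entry, fell 5.42-fold (edgeR, adjusted p = 0.0157), and TFDP1 (ENSDARG00000016304), the partner of E2f factors, 3.68-fold (adjusted p = 0.0224, or 0.0607 and 0.0781 with vein library 1 or non-vein library 1 left out). The other TFDP1 gene, ENSDARG00000019293, did not pass (log2 -1.26, edgeR, adjusted p = 0.104). E2F5 and e2f2 had 0 counts in the vein libraries and were at least 116-fold and 60.5-fold lower (edgeR, adjusted p = 0.0345 and 0.0415). Both lost their calls with non-vein library 1 left out (adjusted p = 0.228 and 0.221), as e2f2 did with non-vein library 2 left out (0.0845), and the count of lower genes was 1 without the first and 3 without the second.

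Of 19 tested Cdk inhibitors and antiproliferative genes 7 were higher in vein, where 4.11% of all tested genes were higher, 0 were lower and 12 did not pass. The median log2 fold was 0.94, and 7 of the 19 log2 folds were negative. Of the 7 calls 1 was a Cdk inhibitor gene, a CDKN1B gene. Another CDKN1B gene, ENSDARG00000029018, had a log2 fold of 1.41 and did not pass (edgeR, adjusted p = 0.223). The 2 GADD45B genes, stress-induced growth arrest genes, had 809.8 and 716 CPM in vein libraries and 127 and 181 CPM in non-vein libraries for ENSDARG00000013576, and 1422 and 1591 CPM in vein and 299 and 477 CPM in non-vein libraries for ENSDARG00000027744. They rose 4.96-fold and 3.88-fold (edgeR, adjusted p = 0.0144 and 0.0178). tob1b and BTG2, of the BTG/TOB family of antiproliferative proteins, rose 3.57-fold and 2.48-fold (edgeR, adjusted p = 0.0144 and 0.0207). CDKN1B (ENSDARG00000054271), a gene of the p27 Cdk inhibitor, singled out after its values were seen, rose by 1.12 on the log2 scale (edgeR, adjusted p = 0.0287), and its call was lost without either vein library (0.0870 and 0.0719) or with non-vein library 1 left out (0.0587). The Cdk inhibitor genes cdkn1a, with a log2 fold of -0.63, and CDKN2C, with 0 counts in both vein libraries and 196 and 35 in non-vein libraries, did not pass (edgeR, adjusted p = 0.185 and 0.0602), and they too were chosen with their values in view. With a replicate block 5 of the list were higher and 0 lower. The number higher was also smaller without vein library 1, vein library 2 or non-vein library 1. Without vein library 2 or non-vein library 2, not every call of the list was in the higher direction.

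**Figure D3:**
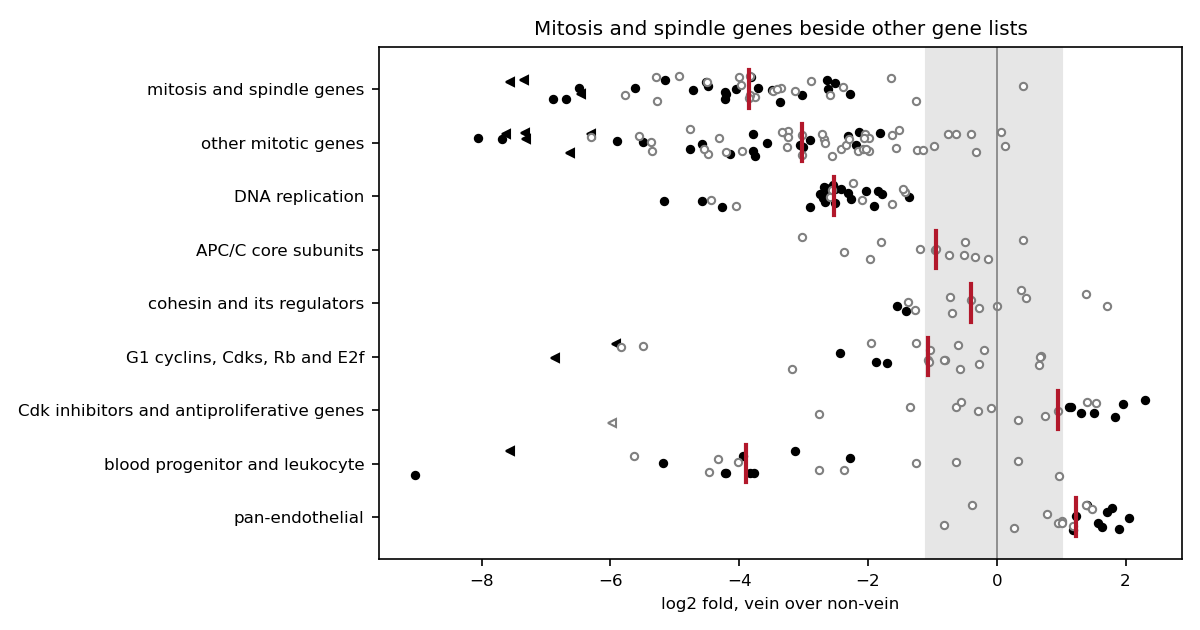
Log2 fold of each tested gene, vein over non-vein, in the mitosis and spindle genes and 8 other lists. Filled symbols passed the test, open symbols did not, arrowheads are genes with 0 vein counts at their bound, red bars are list medians, and the grey band is the interquartile range of all 15953 tested genes. The medians run from -3.85 for the mitosis and spindle genes and -3.89 for the blood progenitor and leukocyte genes to 1.23 for the pan-endothelial genes.

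Markers of blood progenitors and leukocytes were mostly low in vein as well, with 18 of 20 log2 folds negative. Both vein libraries lay below both non-vein libraries for 17 of the 20 and above for 1, against 33.1% and 29.0% of all tested genes. Of these markers 10 of 20 tested were lower in vein and 0 higher (median log2 -3.89, where 7.33% of all tested genes were lower), and their summed level was 666 and 951 CPM in vein libraries and 5216 and 4117 CPM in non-vein libraries. Of the 22 marker genes, 7 and 3 were at 0 in the vein libraries and 1 in each non-vein library. gfi1aa had 0 counts in both vein libraries, KIT 0 in vein and 2 and 41 in non-vein libraries, and csf1ra 0 in all 4. rac2, a GTPase of leukocytes, had 33.2 and 46.0 CPM in vein libraries and 393 and 305 CPM in non-vein libraries (edgeR, adjusted p = 0.0124). IKZF1, a blood cell transcription factor, had 8.29 and 7.72 CPM in vein libraries and 140 and 108 CPM in non-vein libraries (edgeR, adjusted p = 0.0104). Pan-endothelial markers had 9 of 19 higher and 0 lower (5 higher without vein library 1), with a sum of 18070 and 15710 CPM in vein libraries and 4365 and 6160 CPM in non-vein libraries. Among all tested genes 4.11% were higher in vein. For 16 of the 19 pan-endothelial markers both vein libraries lay above both non-vein libraries, against 29.0% of all tested genes. For 2 both lay below, against 33.1% of all. The part that blood cells or endothelial content had in the level of the mitotic genes was not tested.

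Of vein and lymphatic genes, lyve1b among them, 9 of 14 were higher and 0 lower, where 4.11% of all tested genes were higher. Markers of mature blood cells and of other tissues gave from 0 to 2 calls a list. Among all tested genes 7.33% were lower. In lists this short, 1 or 2 calls are no result about the list. The counts below with a library left out have no share of all tested genes beside them. Neutrophil markers had 1 of 6 higher, skeletal muscle 1 of 9 higher, macrophage 1 of 3 lower, and thrombocyte 1 higher and 1 lower of 7, as mural and stromal markers did of 12. Skeletal muscle markers leaned higher in vein, with 0 of 9 log2 folds negative and a median of 1.89. Of the 9, 7 had an unadjusted p under 0.05 (edgeR), as did 4795 of all 15953 tested genes. Both vein libraries lay above both non-vein libraries for 7 of the 9, against 29.0% of all tested genes. With a replicate block 5 were higher. Erythroid (9 tested), epidermal (6), neural (3) and lymphocyte (1) markers had 0 calls (edgeR, 1, 0, 0 and 0 with an unadjusted p under 0.05). Skeletal muscle markers summed to 2838 and 7716 CPM in vein libraries and 777.5 and 1915 CPM in non-vein libraries, and epidermal markers to 49.96 and 440.4 CPM in vein and 96.3 and 109 CPM in non-vein libraries, so vein library 2 was the higher of its pair for both. Muscle genes higher in vein numbered 7 without vein library 1, 5 without non-vein library 2 and 0 without either of the others, and epidermal genes 3 without vein library 1. Without vein library 1, 1 erythroid gene was higher, and 2 were without non-vein library 2. Neutrophil genes had 2 lower and 1 higher without vein library 2 and 2 higher without non-vein library 1, and 2 macrophage genes were lower without vein library 2. Thrombocyte genes had 2 lower and 0 higher without vein library 2 and 0 calls without non-vein library 1. Mural and stromal genes higher in vein numbered 2 without vein library 1 and 3 without non-vein library 2, and 0 were lower without either non-vein library.

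**Figure D4:**
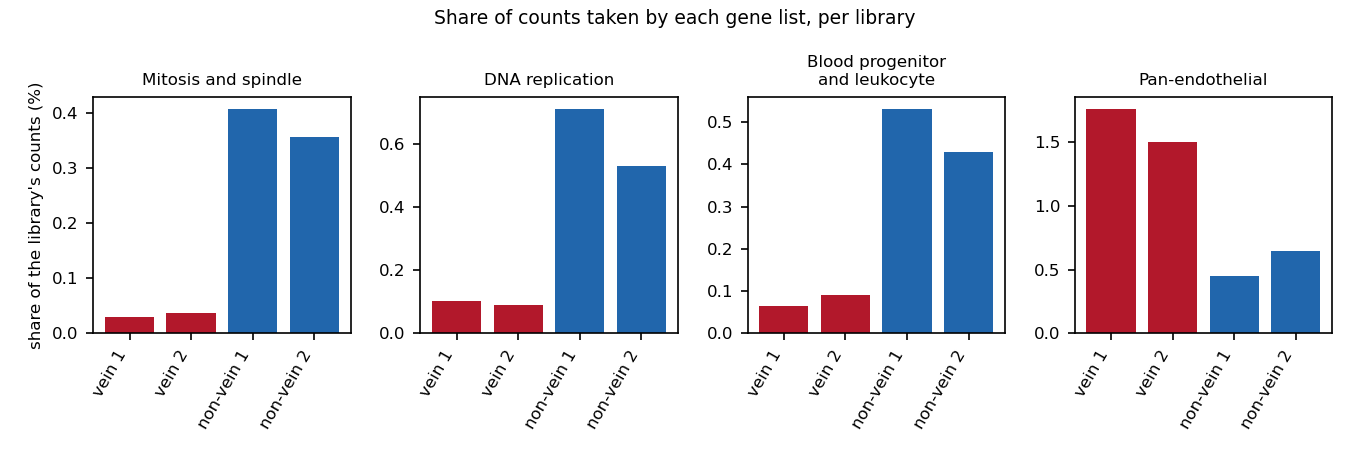
Share of each library's estimated counts, in percent, taken by the mitosis and spindle genes, the DNA replication genes, the blood progenitor and leukocyte markers and the pan-endothelial markers, with vein libraries in red on the left and non-vein libraries in blue on the right, each panel on its own scale from 0. The first 3 lists are lower in both vein libraries (0.0285% and 0.0356%, against 0.407% and 0.356%, for the mitosis and spindle genes) and the pan-endothelial list is higher in both.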

How the data were processed

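RNA of sorted cells was sequenced as libraries of enriched mRNA, per the labels' protocols. The submitters' processing notes list the genome build GRCz11 and the tools RSEM, StringTie 1.3.1, HISAT2, Bowtie2 2.2.8, fastp 0.18.0 and DESeq2. Their roles and the use of strand are not given in the sources used here. One deposited table has FPKM in its column names but whole numbers with differing sums, so it was read as the authors' estimated counts and used for all tests. FPKM from the authors' other deposited table gave levels per length and some alternatives.

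After a filter on low values (filterByExpr, minimum count 10) and TMM scaling, groups were compared by the quasi-likelihood test of edgeR 4.0.16 (legacy method, R 4.3.3), with Benjamini-Hochberg adjustment over all tested genes at 0.05. CPM are TMM-scaled, and SE is the log2 fold over the square root of F. Names came from a table giving 23608 of 25522 Ensembl genes a symbol, and list names shared by more than 3 identifiers were left out. The members and lists were chosen with earlier results of these data known. All members are named. From other lists, up to 4 called genes (3 for markers) in order of adjusted p could be named, or the 2 with the highest FPKM where none was called, and fewer are printed here. KIF4A, the CDKN1B genes, CKS2 (ENSDARG00000117089), cdkn1a, CDKN2C, gfi1aa, KIT and csf1ra are outside this rule and were picked with their values in view. Alternatives used DESeq2 1.42.0, limma 3.58.1, other scaling, filters and pseudocounts, a replicate block, and each library left out.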

Additional observations from a re-analysis of the deposited data

How the results depend on the processing

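Under the 16 alternatives the number of mitosis and spindle genes lower in vein ran from 16 to 39 and the number higher was always 0. It was 39 by the edgeR version 4 method in place of 24, and 32 to 36 without one or other vein library and 17 to 20 without one or other non-vein library (range 17 to 36). The median log2 fold of -3.85 ran from -4.52 to -3.73 with a library left out, and was -4.75 with limma-voom, -2.82 with limma on log2(FPKM + 1), -2.72 with that without a filter, and -4.53 with the replicate block. The log2 fold of KIF23 was 0.41, turned to -0.19 without vein replicate 2, and ran up to 0.83 with another library left out. Over all genes, 1826 changed and 1170 were lower. These counts were 4047 and 2371 with DESeq2, 3213 and 1881 with the edgeR version 4 method, 3300 and 2137 with limma on log2(FPKM + 1), 2845 changed without a filter, 1769 lower with limma on log2(FPKM + 0.1), and 1084 to 1903 changed and 622 to 1313 lower with a library left out. The cause of these differences was not tested. Same-numbered libraries deviated together at r = 0.04 across tested genes, which cannot show whether they came from the same pool. With a replicate block 1170 genes changed, 716 of them lower, and 17 mitosis and spindle genes were lower. With summed FPKM in place of counts, these genes took 0.0252% in vein, in place of 0.0320%, and 0.281% in non-vein libraries, in place of 0.382%. These shares ran from 0.0285% to 0.0356% and from 0.356% to 0.407% with a library left out. The median log2 fold of all genes moved most, to -0.28, without vein replicate 2, far less than the medians of these genes. The search of promoters for motifs was not run, since no promoter sequence was used here. Depth limits genes near 0: 17 of the 45 had 0 counts in at least 1 vein library, where counting error alone allows up to 0.196 CPM. For 10 of the 45 (22.2%) the other vein library held at least 20 counts, against 5.62% of all tested genes. That bound does not cover such differences between the vein libraries, and their cause was not tested.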

Other observations

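The deposited tables imply the transcript length behind each gene's FPKM (counts divided by FPKM and by the library total). Of 18 mitosis and spindle genes with at least 20 counts in every library, 15 had vein and non-vein lengths within 1.25-fold of each other, and 3 differed by over 1.5-fold. SPC25 had implied lengths of 3382 and 2343 bases in vein libraries and 1181 and 1205 bases in non-vein libraries, so that its mean FPKM was 14.2-fold lower in vein and its mean CPM 5.69-fold lower. RACGAP1 had 5979 and 5975 bases in vein libraries and 2813 and 3894 bases in non-vein libraries, and was 6.29-fold lower in FPKM and 3.12-fold lower in CPM. ECT2 had 8217 and 7833 bases in vein libraries and 4112 and 4800 bases in non-vein libraries, and was 4.72-fold lower in FPKM and 2.39-fold lower in CPM. Which transcripts were counted was not examined, and these differences carry no test. For KIF23 the lengths were 2551 and 3243 bases in vein libraries and 3207 and 3258 bases in non-vein libraries.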
